A study of Homo sapiens with 10 samples.

Results

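The expression of 9 genes of the Nodal pathway and of mesendoderm was followed through 4 knockdowns in human embryonic stem cells. The members are NODAL, LEFTY1, LEFTY2, CER1, TDGF1, GDF3, FOXH1, MIXL1 and EOMES, taken by name from a table of 14785 rows, and all 9 were found. They were put together with their values after SMARCA4 knockdown already known, so the comparison of shSMARCA4 with the control is given for them as values, with no test. The other knockdowns, and other genes of the pathway, were tested across the whole table. The lists of these other genes were also chosen with earlier results of these data known.

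The cells were H1, an established human embryonic stem cell line, grown on Matrigel in mTeSR1 medium and labelled as wild type in genotype, and the study asked about regulators of chromatin structure at transposable elements. Short hairpin RNAs (shRNAs) against SMARCA4 (the ATPase of BAF chromatin remodelling complexes), MAFK (a small MAF transcription factor), E2F6 (a repressive E2F factor) or KDM1A (a histone lysine demethylase) were delivered by virus, and puromycin selection began after 2 days. The control hairpin targeted luciferase (shLUC), an enzyme human cells lack, and each of the 5 groups had 2 libraries, described as biological duplicates. How many hairpins were used per target, and how long selection lasted, are not given in the sources used here. Values are normalized tag counts, whole numbers on a scale where every library has the same median of 594, so the read depth is unknown. Whether they are scaled by gene length is not given in the sources used here, so levels are compared between libraries and not between genes. In what follows a pair of values is replicate 1 and then replicate 2.

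Nodal is a secreted ligand of the TGF-beta superfamily. It binds activin receptors together with a co-receptor of the EGF-CFC family, the receptors phosphorylate SMAD2 and SMAD3, and these enter the nucleus with SMAD4 and act with DNA-binding partners such as FOXH1. Targets include NODAL itself and its secreted antagonists of the LEFTY and Cerberus families, so the pathway both amplifies and limits its own signal. In human embryonic stem cells a moderate level of activin and Nodal signalling sustains NANOG and pluripotency, while a higher level drives cells to mesendoderm, the precursor of mesoderm and definitive endoderm, where EOMES and MIXL1 are expressed.

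The bases before the start sites of members that moved together after SMARCA4 knockdown are shown because FOXH1 and SMAD proteins bind DNA elements of many Nodal targets. Elements outside these windows were not examined, so a window without a match says nothing of the rest of the gene. RefSeq promoter windows (GRCh38.p14) were matched for 5 of the 9 members: MIXL1, EOMES, CER1, NODAL and GDF3. The 4 below are printed 5′ to 3′ on the strand of the gene, from the distal end to the first base of a GENCODE exon or to the RefSeq start. They lie at chr1:226223414-226223617 (plus strand), chr9:14722734-14722983, chr10:70441682-70441931 and chr12:7695777-7696025 (all minus strand). The NODAL window lies inside the GENCODE span of the gene, between its exons. Capitals mark the FOXH1 core AATNNACA and the SMAD element CAGACA on either strand.
MIXL1: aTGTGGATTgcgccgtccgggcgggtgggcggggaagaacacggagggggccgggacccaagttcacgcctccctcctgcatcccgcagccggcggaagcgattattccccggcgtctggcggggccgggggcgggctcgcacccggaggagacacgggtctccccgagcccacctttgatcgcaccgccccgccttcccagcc
CER1: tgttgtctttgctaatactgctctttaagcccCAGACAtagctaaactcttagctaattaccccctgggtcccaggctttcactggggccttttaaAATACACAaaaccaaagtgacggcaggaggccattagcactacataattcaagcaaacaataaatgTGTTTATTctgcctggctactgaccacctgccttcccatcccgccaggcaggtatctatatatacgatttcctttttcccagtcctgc
NODAL: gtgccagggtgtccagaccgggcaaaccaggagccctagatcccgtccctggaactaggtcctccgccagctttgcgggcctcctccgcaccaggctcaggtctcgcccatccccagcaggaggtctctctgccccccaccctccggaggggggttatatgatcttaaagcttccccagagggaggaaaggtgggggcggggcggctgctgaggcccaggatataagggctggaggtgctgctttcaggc
GDF3: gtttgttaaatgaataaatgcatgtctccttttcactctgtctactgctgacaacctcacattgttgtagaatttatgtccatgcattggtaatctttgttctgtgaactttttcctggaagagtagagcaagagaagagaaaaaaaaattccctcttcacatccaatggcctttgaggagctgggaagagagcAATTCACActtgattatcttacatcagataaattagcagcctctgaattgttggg

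In the 250 bases before the RefSeq start, the FOXH1 core AATNNACA (on the other strand TGTNNATT) was found in 3 of the 5 member windows, those of MIXL1, CER1 and GDF3. It was found in 9.88% of the 35116 RefSeq windows of the same length. The MIXL1 match, which begins 249 bases before the start, was the form AATCCACA on the minus strand, present in 0.709% of all windows. CER1 held the core at 2 places, 154 and 88 bases before its start, and also the SMAD element CAGACA (reverse complement TGTCTG), which 13.6% of all windows hold. The T-box element AGGTGTGA (reverse complement TCACACCT), the kind of site that EOMES binds, was in 0 of the 5 windows and in 0.786% of all. No motif pair overlapped by construction except AATCCACA, which is contained in AATNNACA. These matches are descriptions of sequence; binding was not measured here.

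The libraries were first checked for the knockdowns and for cell identity. SMARCA4 had 1100 and 985 in its own knockdown and from 7576 to 9296 in the other 8 libraries. KDM1A had 3290 and 1879 against at least 5421 elsewhere, and E2F6 had 336 and 304 against at least 450. MAFK had 82 and 216 in shMAFK and at least 210 elsewhere, so replicate 2 of the libraries labelled shMAFK was not below the others in the transcript it targets. They are called shMAFK below by their label only. All 13 pluripotency markers on the list used were in the table, and 0 of them passed the test in any knockdown. In shSMARCA4 4.18% of all rows passed. At an unadjusted p under 0.05 the counts were 4 for shSMARCA4 (16.3% of all rows) and 0 for shMAFK (8.77%). They were 1 for shE2F6 (5.09%) and 1 for shKDM1A (11.5%). Of the 4, SOX2 (log2 change -0.54, limma adjusted p 0.0552), LIN28A (-0.44, 0.0773) and TERF1 (-0.61, 0.0932) were lower. NANOG was higher (0.68, limma adjusted p 0.284), with 4613 and 3699 in shSMARCA4 and at most 2923 in the other 8 libraries. Against shLUC, 5 of the 13 were lower without overlap in shSMARCA4 and 1 was higher. The 0 calls thus do not show that marker levels were unchanged. Of the markers of other cell types, 4 of 8 neural ectoderm genes, 2 of 9 trophoblast and amnion genes and 1 of 5 extraembryonic endoderm genes were in the table. Of these 7, ZIC1 (a neural transcription factor) was higher and KRT7 (a keratin) lower in shSMARCA4, with limma adjusted p-values of 0.0147 and 0.00463. The other 3 neural genes had lower means there and did not pass: SOX3 differed by -1.67, OTX2 by -0.67 and NES by -0.37, and the median of the 4 was -0.52. Their part in the results below was not tested. In bulk RNA, more cells that express a gene and more RNA per cell cannot be told apart.

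After SMARCA4 knockdown 8 of the 9 members had a higher group mean on the log2 scale than shLUC, and TDGF1 had a lower one. The median difference over the 9 was 2.91 on the log2(value + 1) scale, where the median over all rows was 0.007. For 7 members both shSMARCA4 libraries lay above both shLUC libraries, for TDGF1 both lay below, and LEFTY2 overlapped. Over all rows 25.6% did not overlap on the higher side and 25.4% on the lower. Against all 8 libraries of the other groups, 5 members were higher without overlap (NODAL, CER1, GDF3, MIXL1 and EOMES; 8.62% of all rows) and 1 was lower (TDGF1; 8.41% of all rows). These counts describe the values the members were chosen on.

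The ligand NODAL (ENSG00000156574, chromosome 10, 70432315 to 70447951, GRCh38, minus strand) had 2112 and 664 in shSMARCA4. The controls had 138 and 91, the libraries labelled shMAFK had 76 and 54, and the knockdowns of E2F6 and KDM1A gave 213 and 146, and 256 and 100. The lower shSMARCA4 library was thus above the highest of the other 8, and both shMAFK libraries were the lowest of all 10. The log2 difference between shSMARCA4 and shLUC was 3.39, from 2.56 for replicate 2 alone to 4.22 for replicate 1 alone.

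GDF3, a related ligand that is expressed in pluripotent cells and acts through the same co-receptor, was likewise highest in shSMARCA4 and lowest in shMAFK, over a smaller range. GDF3 (ENSG00000184344, chromosome 12, 7689782 to 7695776, minus strand) had 1076 and 443 in shSMARCA4 and 340 and 205 in shLUC. The shMAFK libraries had 152 and 106, E2F6 knockdown 430 and 434, and KDM1A knockdown 223 and 201. The lower shSMARCA4 library was only just above both shE2F6 libraries, so shSMARCA4 replicate 2 and shE2F6 did not separate clearly. The log2 difference in shSMARCA4 was 1.38, from 0.74 to 2.02 by library.

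The co-receptor TDGF1 (Cripto) and the DNA-binding partner FOXH1, which carry and read the signal, did not follow the ligand. TDGF1 (ENSG00000241186, chromosome 3, 46574534 to 46582463, plus strand) had its lowest pair of values, 9056 and 7313, after SMARCA4 knockdown, where the controls had 10950 and 13159. The remaining libraries lay between 9772 (shE2F6) and 14274 (shMAFK), and the log2 difference in shSMARCA4 was -0.56. FOXH1 (ENSG00000160973, chromosome 8, 144473412 to 144476335, minus strand) had 2639 and 2690 in shSMARCA4 and 2130 and 2266 in shLUC, a log2 difference of 0.28. The highest FOXH1 pair, 3584 and 3623, was that of shMAFK, while E2F6 knockdown gave 2039 and 2586. KDM1A knockdown gave 1681, the lowest of all 10, and 3276, which is above both shSMARCA4 libraries.

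The 3 secreted antagonists, which bind Nodal or its co-receptor and restrain it, had their highest values in shSMARCA4 replicate 1. LEFTY1 (ENSG00000243709, chromosome 1, 225886282 to 225911382, minus strand) had 1885 and 131 in shSMARCA4 and 125 and 34 in shLUC. LEFTY1 was lowest in the libraries labelled shMAFK, at 12 and 1, and the knockdowns of E2F6 and KDM1A gave 191 and 74, and 258 and 22. The value of 131 in shSMARCA4 replicate 2 lay below replicate 1 of both shE2F6 and shKDM1A, so that library did not stand apart.

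LEFTY2 (ENSG00000143768, chromosome 1, 225936598 to 225941489, minus strand) had 396 and 42 in shSMARCA4 and 48 and 24 in shLUC. The shMAFK libraries had 4 and 2, E2F6 knockdown 137 and 42, and KDM1A knockdown 48 and 11. Replicate 1 of shSMARCA4 and of shE2F6 stood above the rest and the shMAFK pair below, and the other LEFTY2 libraries mixed. CER1 (Cerberus; ENSG00000147869, chromosome 9, 14719724 to 14722717, minus strand) had 2354 and 172 in shSMARCA4 and 44 and 21 in shLUC. It had 57 and 45 after E2F6 knockdown. In the shMAFK libraries it had 9 and was listed at 0, and after KDM1A knockdown it had 55 and was listed at 0. CER1 separated shSMARCA4 from every other library, while its low libraries came from both shMAFK and shKDM1A.

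The log2 differences of the antagonists in shSMARCA4 were 2.91 for LEFTY1, 1.90 for LEFTY2 and 4.34 for CER1. Taking replicate 2 alone they were 0.99, 0.30 and 2.46, and taking replicate 1 alone 4.83, 3.50 and 6.23. LEFTY1 and LEFTY2 are near copies: their main GENCODE transcripts shared 96.3% of bases over 1202 aligned positions, and how reads were divided between them is not stated, so their separate values are uncertain. A read-through gene, AL117348.2, overlaps LEFTY1 on the same strand and had 3227 and 764 in shSMARCA4 and 976 and 950 in the controls, a log2 change of 0.71 (limma adjusted p 0.618). TDGF1 likewise has a transcribed pseudogene, TDGF1P3, identical at 97.9% of 2487 aligned positions. FOXH1 overlaps KIFC2 on the opposite strand, which differed by 0.25 in shSMARCA4 and 0.41 in shMAFK, and use of strand in the counting is not stated.

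The mesendoderm transcription factors were near the bottom of the scale in every group but shSMARCA4. MIXL1 (ENSG00000185155, chromosome 1, 226223618 to 226227054, plus strand), a homeobox factor of the primitive streak, had 1809 and 132 in shSMARCA4 and 20 and 14 in shLUC. The shMAFK libraries had 10 and 9, and the knockdowns of E2F6 and KDM1A gave 34 and 19, and 24 and 14, so its highest value outside shSMARCA4 was 34. EOMES (ENSG00000163508, chromosome 3, 27715949 to 27722711, minus strand), a T-box factor needed for definitive endoderm, had 2430 and 724 in shSMARCA4 and 14 and 34 in shLUC. The shMAFK libraries had a listed 0 and 6, E2F6 knockdown 24 and a listed 0, and KDM1A knockdown a listed 0 and 20. The 8 libraries of the other groups did not separate from each other for EOMES.

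The log2 differences in shSMARCA4 were 4.79 for MIXL1 (2.91 and 6.67 by library) and 5.86 for EOMES (4.98 and 6.73). Every row of the table reached at least 80 in at least 2 libraries. MIXL1, EOMES and CER1 reached 80 only in the 2 shSMARCA4 libraries, so these 3 are in the table only because they were high there and had to differ. The other 6 members reached 80 in at least 1 library of another group. LEFTY2 did so in only 2 libraries, shSMARCA4 replicate 1 (396) and shE2F6 replicate 1 (137). Its place in the table thus also rests on an shSMARCA4 value, and a higher replicate 1 was favoured in these 2 groups.

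**Figure D1:**
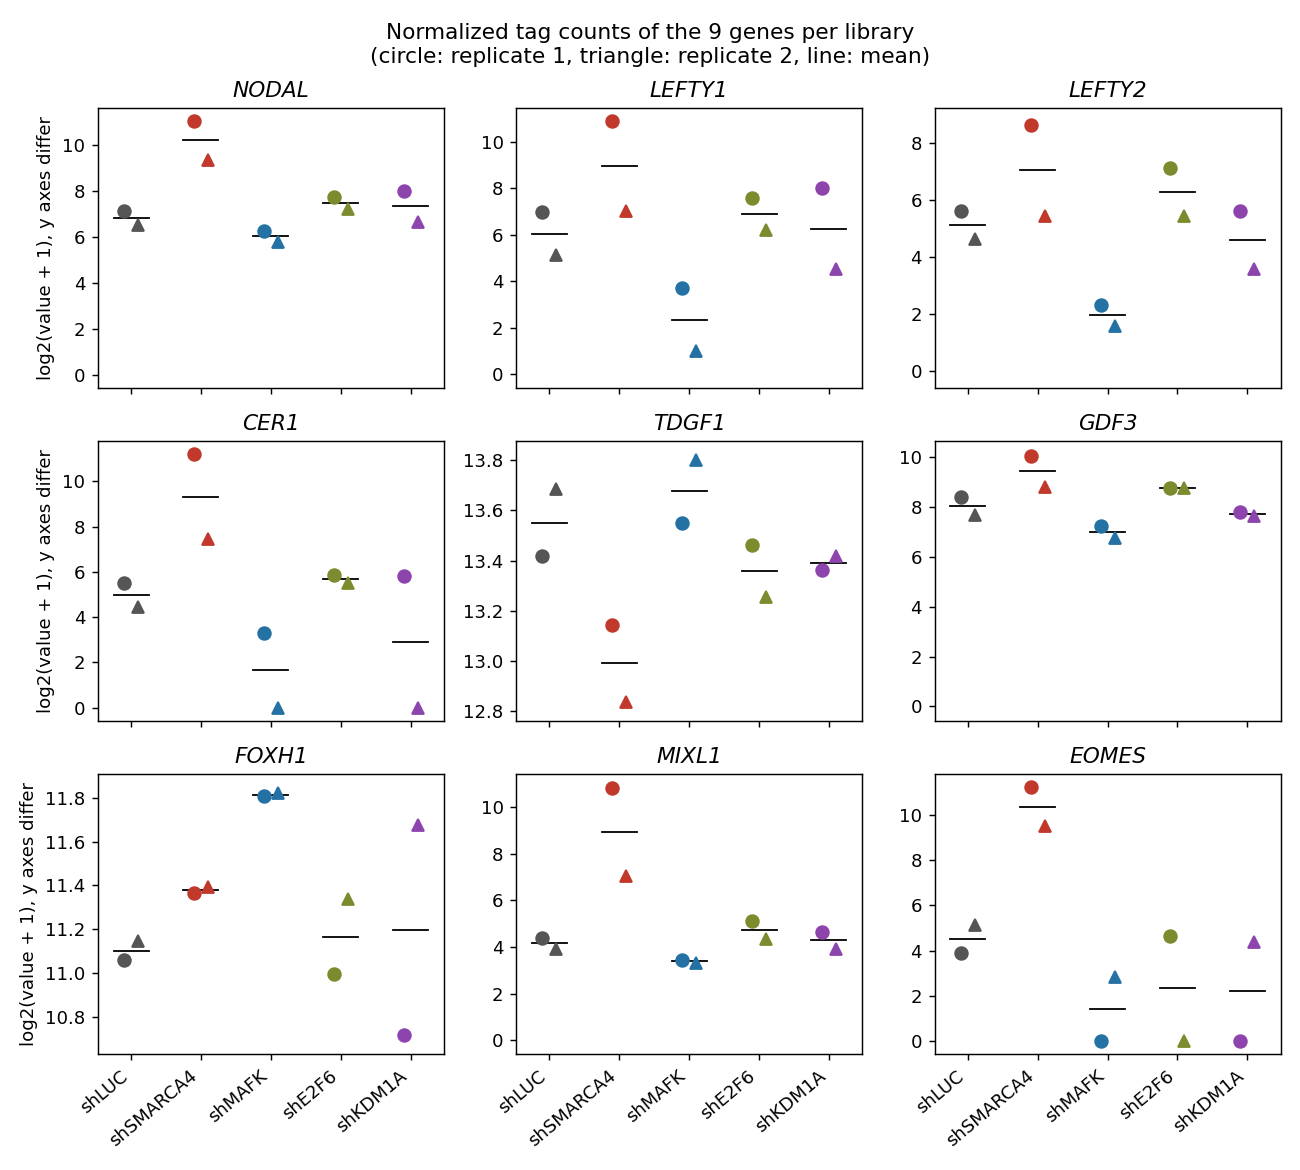
Normalized tag counts of the 9 genes in each of the 10 libraries, as log2(value + 1) on the y axis of each panel (ranges differ), by group on the x axis. Circles are replicate 1, triangles replicate 2 and lines the mean of the 2. The shSMARCA4 libraries are the highest for NODAL, CER1, GDF3, MIXL1 and EOMES and the lowest for TDGF1, and the shMAFK libraries are the lowest for NODAL, LEFTY1, LEFTY2, GDF3 and MIXL1 and the highest for FOXH1.

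The shSMARCA4 libraries differed from each other for most members, although SMARCA4 itself was about equal in them (1100 and 985). Replicate 1 was at least 2 times replicate 2 for 7 of the 9 members, against 1.3% of all rows. This count describes the values the members were chosen on, and CER1, MIXL1 and EOMES are in the table only through them. The members were grouped by pathway and are not independent observations, and the share over all rows is not matched for level. The ratio was 14.4 for LEFTY1, 13.7 for both CER1 and MIXL1 and 9.43 for LEFTY2. It was 3.36 for EOMES, 3.18 for NODAL and 2.43 for GDF3, while TDGF1 (1.24) and FOXH1 (0.981) were close to equal. The antagonists and MIXL1 differed more between the 2 libraries than NODAL and EOMES did.

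The same order of replicates was seen in the other groups. NODAL, LEFTY1, LEFTY2, CER1 and MIXL1 were higher in replicate 1 than in replicate 2 in all 5 groups, which is 5 of the 9 members against 6.12% of all rows. FOXH1 was higher in replicate 2 in all 5 groups, against 5.79% of all rows. For LEFTY1 the difference of replicate 1 minus replicate 2 on the log2 scale was 1.85 for the controls and 3.84, 2.70, 1.36 and 3.49 for the shRNAs against SMARCA4, MAFK, E2F6 and KDM1A. GDF3 was higher in replicate 1 in 4 groups, and EOMES and TDGF1 in 2. Of the 25 other pathway genes in the table, SMAD7, PMEPA1 and ZFYVE9 (3 genes) were higher in replicate 1 in all 5 groups. Whether equal numbers mark a shared culture day or batch is not stated in the labels, and its part in these differences was not tested.

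**Figure D2:**
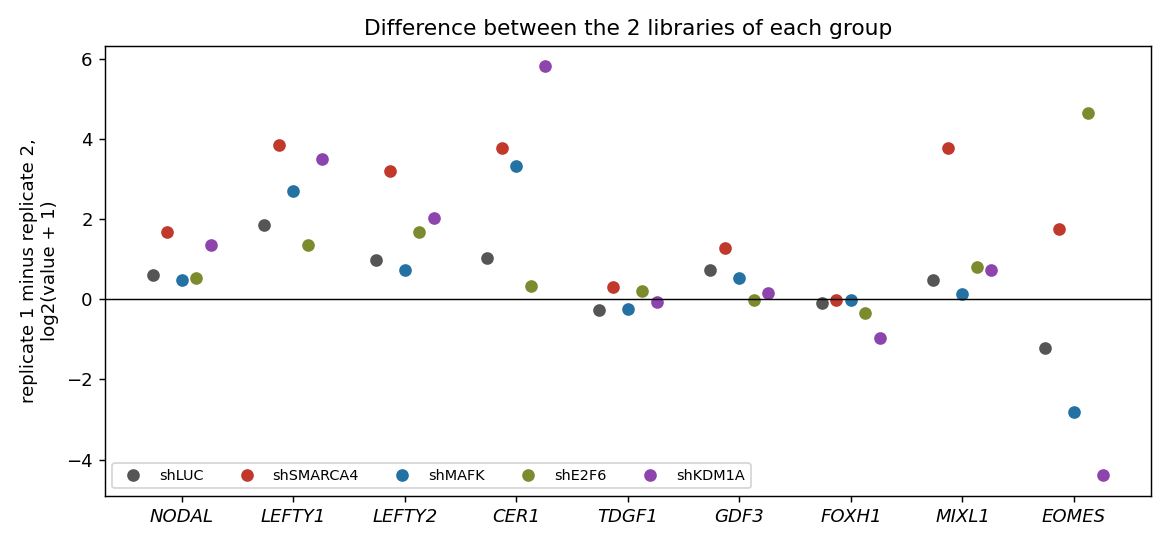
Replicate 1 minus replicate 2 on the log2(value + 1) scale (y axis) for each gene (x axis), with 1 point per group. All 5 points are above 0 for NODAL, LEFTY1, LEFTY2, CER1 and MIXL1, and all 5 are below 0 for FOXH1; the points of EOMES lie on both sides, where values near or at 0 make the log2 difference wide.

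In the libraries labelled shMAFK most of the members had lower values than in the controls, but no member passed the test. Replicate 2, which has the lower value of the pair for LEFTY1, LEFTY2 and CER1, had 216 for MAFK itself, against 212 and 288 in the controls. Both shMAFK libraries lay below both shLUC libraries for 7 of the 9 members (25.3% of all rows) and above them for FOXH1 (23.8% of all rows). Against the 6 libraries of shLUC, shE2F6 and shKDM1A together, 5 members were lower without overlap (NODAL, LEFTY1, LEFTY2, GDF3 and MIXL1; 6.92% of all rows) and FOXH1 was higher (6.77% of all rows). The median log2 change of the 9 was -1.05, with -0.004 over all rows. In limma 0 of the 9 had an adjusted p under 0.05 over all rows (0.0135% of all rows did), and 4 had an unadjusted p under 0.05 (8.77% of all rows).

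These 4 were LEFTY1, LEFTY2, GDF3 and FOXH1. LEFTY2 differed by -3.18 on the log2 scale (SE 1.13, limma adjusted p 0.433) and LEFTY1 of -3.70 (SE 1.5, limma adjusted p 0.524). GDF3 had -1.05 (SE 0.39, limma adjusted p 0.467) and FOXH1 0.71 (SE 0.27, limma adjusted p 0.487). NODAL itself had a change of -0.80 (SE 0.57, limma adjusted p 0.81). The values for CER1, EOMES and MIXL1 were -3.31, -3.11 and -0.76, at levels of 10 or below in shMAFK where the log2 scale is coarse, and TDGF1 had 0.12. LEFTY2 (4 and 2) and LEFTY1 (12 and 1) were also near the bottom of the scale in shMAFK. The change of NODAL was smaller than those of its antagonists, but the size of that contrast depends on these low values. With a pseudocount of 10 the changes were -0.72 for NODAL, -2.31 for LEFTY1, -1.78 for LEFTY2 and -1.57 for CER1. The shSMARCA4 and shMAFK comparisons share the shLUC libraries. With weights estimated per group, FOXH1 passed, as did 3.29% of all rows (limma adjusted p 0.0318, and 0.0318 to 1 over its alternatives), and no other member did under any alternative for shMAFK.

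After knockdown of E2F6 or of KDM1A no member passed the test. In shE2F6 the median log2 change was 0.65, and 3 members (NODAL, CER1 and GDF3) lay above both shLUC libraries, against 20.3% of all rows, while 0 lay below both (20.4% of all rows). No member passed in limma (lowest adjusted p 0.996; 0% of all rows passed), and 0 of 9 had an unadjusted p under 0.05 (5.09% of all rows). The largest increases were 1.14 for LEFTY2 (SE 1.13) and 0.85 for LEFTY1 (SE 1.5), about the size of their errors or below. In shKDM1A the median was -0.16, 0 members lay above (17.9% of all rows) or below (20.9% of all rows) both controls, and 0 passed (lowest limma adjusted p 0.604; 0.0271% of all rows passed), with 0 at an unadjusted p under 0.05 (11.5% of all rows). There the 2 libraries disagreed: LEFTY1 had 258 and 22, and its change of 0.22 was -1.53 without replicate 1 and 1.96 without replicate 2.

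The means of shLUC, shMAFK, shE2F6 and shKDM1A were also compared by limma's moderated F-test, with the error estimated from all 10 libraries, shSMARCA4 included. None of the 9 members passed over all rows, where 0.156% of rows did. An unadjusted p under 0.05 was found for 2, GDF3 (p 0.00997, limma adjusted p 0.227) and LEFTY2 (p 0.0223, limma adjusted p 0.29), and 13.3% of all rows had one. Without shKDM1A replicate 2, 1 member (FOXH1) passed, as did 21.8% of all rows. An alternative chosen after seeing the data left both shSMARCA4 libraries out of the fit. There 0 of 9 passed the F-test (0.0338% of all rows), and 3 had an unadjusted p under 0.05 (GDF3, LEFTY2 and LEFTY1; 12.3% of all rows), with the lowest limma adjusted p at 0.174 for GDF3. In that fit 0 of 9 also passed against shLUC in shMAFK (0.0135% of all rows), shE2F6 (0.00676%) and shKDM1A (0.0338%). GDF3 ordered as shE2F6 (430 and 434), shLUC (340 and 205), shKDM1A (223 and 201) and shMAFK (152 and 106), and shE2F6 lay above and shMAFK below all other libraries of these groups.

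**Figure D3:**
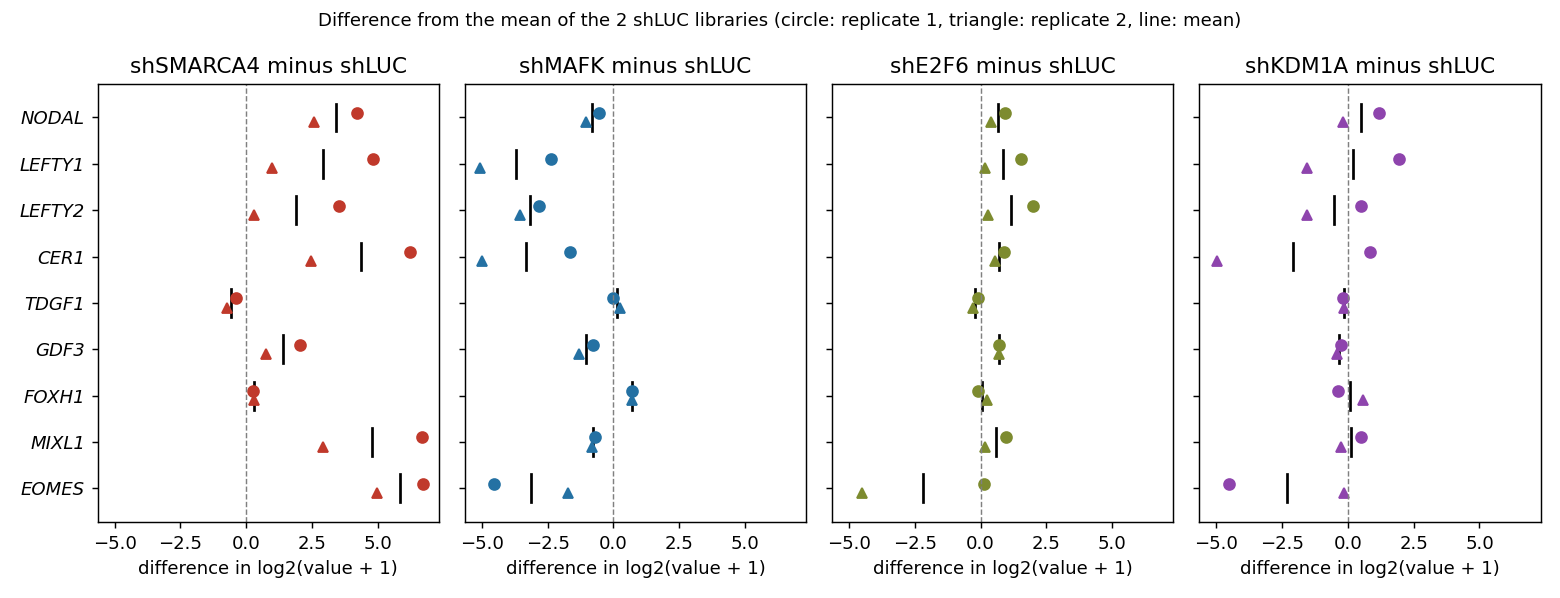
Difference of each knockdown library from the mean of the 2 shLUC libraries, in log2(value + 1), for the 9 genes (rows); circles are replicate 1, triangles replicate 2 and lines their mean. In shSMARCA4 every point except those of TDGF1 is above 0, in shMAFK the lines of 7 genes are below 0, and in shKDM1A the circles and triangles of LEFTY1, LEFTY2 and CER1 lie on opposite sides of 0.

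The rest of the pathway was examined from a list of 29 ligands, convertases, receptors, SMAD proteins and their regulators, of which 25 were in the table (INHBA, INHBB, CFC1 and DAND5 were not analysed here). After SMARCA4 knockdown 2 of the 25 rose and 0 fell at a limma adjusted p under 0.05, against 1.67% and 2.51% of all rows (4.18% together), and 6 had an unadjusted p under 0.05 (16.3% of all rows). The median log2 change of the list was 0.07. The list was chosen with earlier results of these data known, so these 2 calls are not independent of that choice. The 2 were PMEPA1, a TGF-beta target that dampens SMAD signalling, and FST (follistatin), a secreted protein that binds activin. PMEPA1 had 1212 and 828 in shSMARCA4 and 275 and 248 in shLUC, which is 1.94 higher on the log2 scale (SE 0.29, limma adjusted p 0.00809). It was higher in both shSMARCA4 libraries than in any of the other 8, whose highest value was 490.

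FST had 963 and 960 in shSMARCA4 and 362 and 444 in shLUC, which is 1.26 higher on the log2 scale (SE 0.26, limma adjusted p 0.0314). Its 2 shSMARCA4 libraries were nearly equal, whereas those of most members were not. The call for PMEPA1 was lost when either shLUC library or shSMARCA4 replicate 1 was left out (limma adjusted p up to 0.09), with a log2 change from 1.66 to 2.21 over all single omissions. The call for FST was lost without any 1 library of shLUC, shSMARCA4 or shE2F6 (limma adjusted p up to 0.219), with a log2 change from 1.11 to 1.41. Of the receptors, ACVR1C (ALK7) had 63 and 78 in the controls and 27 and 40 after SMARCA4 knockdown, a log2 difference of -1.07 (SE 0.31, limma adjusted p 0.11, and 0.0354 to 0.519 over its alternatives).

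The core of the signal cascade showed small differences in shSMARCA4. The type I receptors ACVR1B and TGFBR1 had log2 changes of -0.09 and 0.07, the type II receptors ACVR2A and ACVR2B of -0.18 and 0.13, and SMAD2, SMAD3 and SMAD4 of 0.05, 0.44 and -0.11. None passed over all rows. SMAD7, an inhibitory SMAD that the pathway itself induces, had 922 and 562 in shSMARCA4 and 547 and 482 in shLUC, and its log2 change of 0.49 (SE 0.61, limma adjusted p 0.795) was within the error. In shMAFK SMAD7 had 224 and 130, below all other libraries except for shKDM1A replicate 2 at 194, and differed from the controls by -1.58 (SE 0.61, limma adjusted p 0.493).

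In the other knockdowns 0 of the 25 passed. An unadjusted p under 0.05 was found for 2 in shMAFK (SMAD7 and TGFBR2; 8.77% of all rows), 2 in shE2F6 (FST and TGFBR2; 5.09%) and 1 in shKDM1A (ACVR1C; 11.5%). TGFBR2, the TGF-beta type II receptor, differed by -0.54 on the log2 scale in shMAFK (SE 0.20, limma adjusted p 0.463), with 222 and 202 against 355 and 267. Without shKDM1A replicate 2, 5 of the 25 passed in shKDM1A (GDF1, FURIN, SMURF1, SMURF2 and PMEPA1), where 21.9% of all rows did.

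Further genes of the primitive streak, mesoderm and endoderm were taken from a list of 28, of which 6 were in the table and 22, TBXT, GSC and SOX17 among them, were not analysed here. Of the 6, FOXA2, WNT3 and FGF8 reached 80 only in the shSMARCA4 libraries, so they are in the table because they were high there, and their values in shSMARCA4 are given with no test. Of the other 3 (HHEX, PDGFRA and KDR), 0 passed. WNT3, a Wnt ligand of the primitive streak, had 562 and 210 in shSMARCA4 and 32 and 38 in shLUC, which is 3.26 higher on the log2 scale. FGF8, an FGF ligand of the streak, had 782 and 146 against 8 and 6, a difference of 5.42. FOXA2, a forkhead factor of endoderm, had 792 and 170 against 4 and 2, a difference of 6.57.

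All 3 were higher in replicate 1 of shSMARCA4, with ratios of 2.68 for WNT3, 5.36 for FGF8 and 4.66 for FOXA2. The difference of WNT3 was from 2.56 to 3.97 over the single omissions. HHEX, a homeobox factor of early endoderm, had 240 and 137 against 96 and 103 (log2 change 0.86, SE 0.30, limma adjusted p 0.178). PDGFRA, a receptor of early mesoderm, had 104 and 40 against 108 and 99 and was the 1 gene of the 6 with a lower mean (log2 change -0.67, limma adjusted p 0.487). In shMAFK all 6 were lower than in both shLUC libraries, as 25.3% of all rows were, and 0 passed. For 3 of the 6 these were differences between low values. FOXA2 was listed at 0 and 0 against 4 and 2, and FGF8 had 5 and 1 against 8 and 6. WNT3 had 20 and 13 against 32 and 38. KDR, a VEGF receptor of early mesoderm that these cells also express, had 3429 and 2512 in shMAFK against 5420 and 4612, a difference of -0.77 (SE 0.19, limma adjusted p 0.227). In shE2F6 and shKDM1A 0 of the 6 passed, and 0 had an unadjusted p under 0.05.

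**Figure D4:**
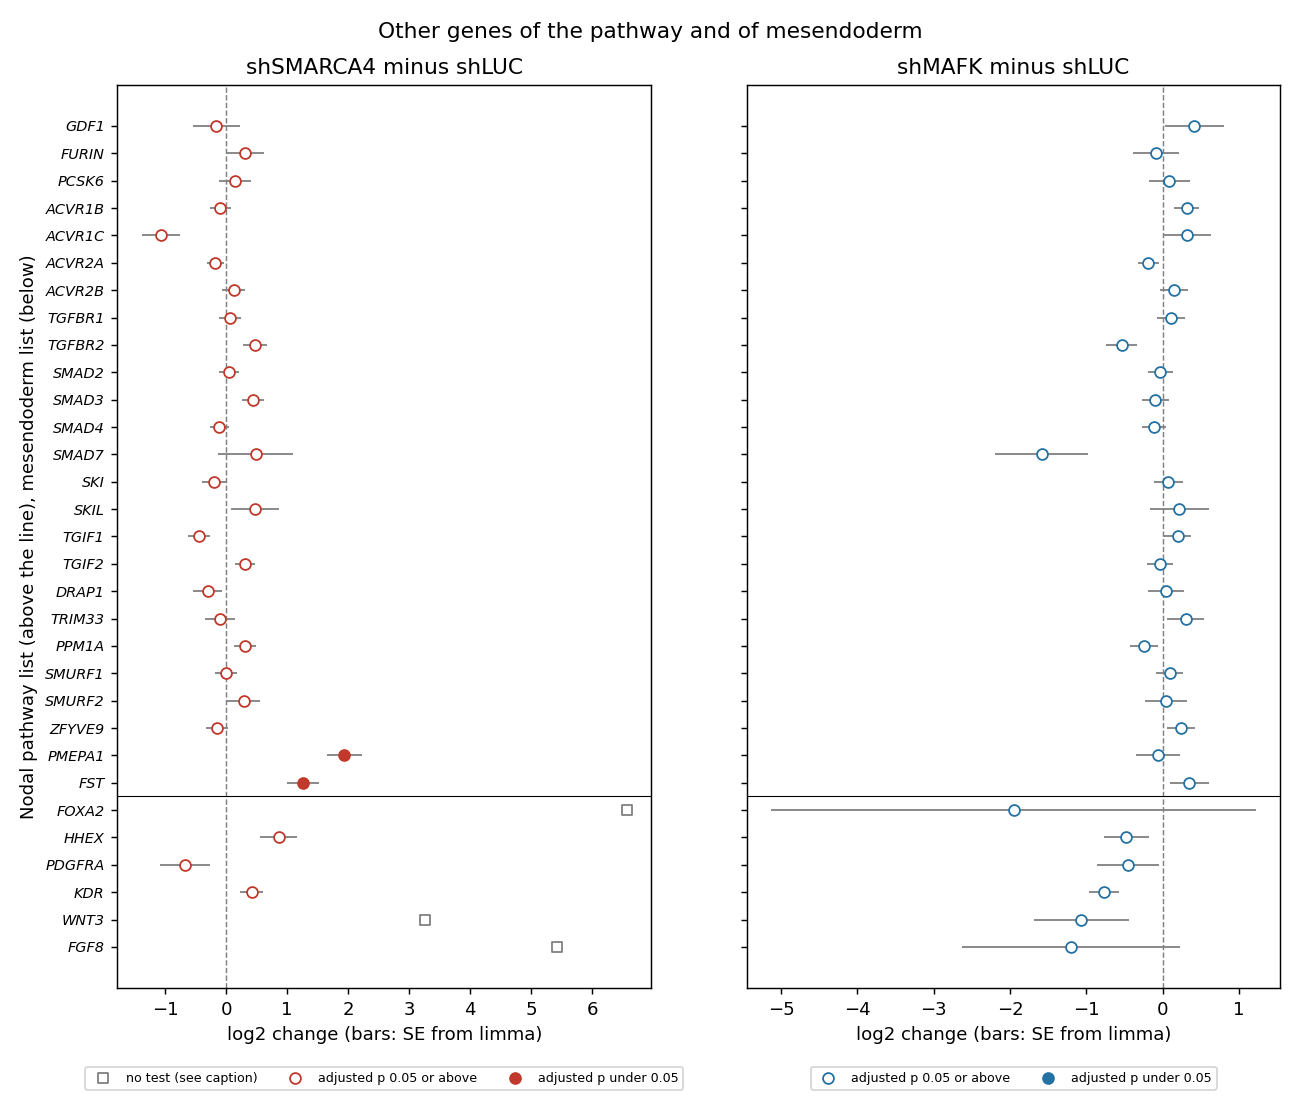
Log2 change from shLUC (x axis, with the SE from limma as bars) of the 25 other pathway genes and the 6 mesendoderm genes in shSMARCA4 and shMAFK; filled points had an adjusted p under 0.05, grey squares without bars are the 3 genes that reached 80 only in shSMARCA4 and were not tested there, and the scales of the panels differ. PMEPA1 and FST are filled in shSMARCA4 and none in shMAFK, and SMAD2 and SMAD4 lie close to 0 in both.

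The rows whose profile was most like that of NODAL were ranked by Pearson's r of log2 values over the 10 libraries, as a description. The 10 highest of 14774 were PMEPA1 (0.981), PCDH10 (0.980), GSTO1 (0.968), MIXL1 (0.968), TUBB2B (0.966), CLTB (0.964), LRFN5 (0.959), RYR2 (0.959), CYP1B1 (0.957) and HAS2 (0.956). In all 10 both shSMARCA4 libraries were above the other 8. Among the members MIXL1 ranked 4, CER1 99 (r 0.890), GDF3 121 (0.881), LEFTY1 138 (0.872), LEFTY2 275 (0.827) and EOMES 586 (0.740). FOXH1 and TDGF1 ranked 11080 (-0.306) and 14351 (-0.791). The members were chosen on their shSMARCA4 values, and MIXL1, CER1 and EOMES are in the table only through them. Their ranks over the 10 libraries were thus partly set by that choice.

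Over the 8 libraries without shSMARCA4, r with NODAL was 0.955 for LEFTY1 (rank 20), 0.942 for MIXL1 (rank 32), 0.917 for PMEPA1 (rank 75), 0.898 for LEFTY2 (rank 110) and 0.881 for SMAD7 (rank 144). It was 0.769 for CER1 (rank 691) and 0.753 for GDF3 (rank 805), -0.746 for TDGF1 and -0.874 for FOXH1. EOMES had -0.137 there, against 0.740 with the shSMARCA4 libraries. These libraries share their group and replicate number, and the values are given with no test.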

How the data were processed

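RNA from 10 libraries (5 groups of 2) was analysed from the authors' deposited table of values per library. Its values are scores: normalized tag counts, as the deposited abbreviation is read here, rounded to whole numbers. STAR, STARsolo and hg38 are named without a role, per the submitters' processing notes; counter, annotation, filter and normalization are not given in the sources used here. Totals lay between 22836548 and 22855295, so depth is unknown and a change in total RNA cannot be seen. Columns not mapped to a sample numbered 0. Groups and replicate numbers are from the sample titles.

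Values were analysed as log2(value + 1), which understates changes of low rows, with no filter. One limma 3.58.1 fit (R 4.3.3; trend, two-sided) of all 10 libraries, with 5 residual degrees of freedom, gave p-values adjusted by Benjamini-Hochberg over 14785 rows; the threshold was 0.05. The p-values measure only the spread between these libraries. Alternatives covered pseudocount, filter, quantile normalization, variance model, libraries, block and single omissions. Every library already had the same median (594) and the same highest value (148866). Quantile normalization was thus a weak check except for low rows. Members and lists were chosen with earlier results of these data known. Named genes were the members, list genes past the threshold or with the 3 largest differences in shSMARCA4, and the 10 rows most like NODAL; genes named only for an unadjusted p, the cell type markers, HHEX, PDGFRA, KDR, SMAD7, the core receptors and SMAD genes, and genes called only under an alternative, were named after their values were seen. Positions are from GENCODE 29 (GRCh38), promoter windows from RefSeq. Tables and plots were made with Python 3.11.15, pandas 2.3.3 and matplotlib 3.10.9, and transcripts were aligned with Biopython 1.88.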

Additional observations from a re-analysis of the deposited data

How the results depend on the processing

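The 0 calls among the members in shMAFK, shE2F6 and shKDM1A were the same under every alternative, the added fit without both shSMARCA4 libraries included, except group weights, which gave 1 in shMAFK (FOXH1); single omissions gave 0 to 0. The F-test gave 0 to 1 under single omissions, the 1 without shKDM1A replicate 2. The median difference of the members in shSMARCA4 was 2.91 and ran from 0.99 (without shSMARCA4 replicate 1) to 4.22 (without shSMARCA4 replicate 2). Pathway list calls in shSMARCA4, 2 as reported, were 3 without the variance trend and with group weights, where the fall of ACVR1C also passed (limma adjusted p 0.0354 and 0.0495), and ran from 0 to 2 under single omissions, and those in shKDM1A from 0 to 5. In shMAFK, group weights gave 1 pathway call (SMAD7) and 1 mesendoderm call (KDR). Mesendoderm calls in shSMARCA4 were all among WNT3, FGF8 and FOXA2, which are in the table only through their shSMARCA4 values, so these counts support nothing. They were 1 (WNT3) in the fit used throughout, 3 with a pseudocount of 10, without the variance trend and when shLUC and shSMARCA4 were fitted alone. They were 2 if groups were weighted or if the shKDM1A pair was left out, 0 with quantile normalization or with rows of a mean of at least 100 (which leaves WNT3 out), and from 0 to 2 under single omissions. The causes were not tested.

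Replicate deviations correlated at -0.05 to 0.337 over all rows in the 10 pairs of groups, 2 of them above 0.1, so the numbers were not taken as pairing. With the replicate block, 2 pathway and 1 mesendoderm genes passed in shSMARCA4 and 0 members, pathway or mesendoderm genes in shMAFK, shE2F6 and shKDM1A; the F-test gave 0. Member changes that turned sign were all uncalled. In shKDM1A they were LEFTY1 (-0.08 with quantile normalization; -1.53 to 1.96 under single omissions), NODAL (-0.16 to 1.18), MIXL1 (-0.24 to 0.49), LEFTY2 (-1.54 to 0.49), CER1 (-4.98 to 0.83), GDF3 (-0.68 to 0.05) and FOXH1 (-0.39 to 0.58). In shE2F6 they were LEFTY1 (-0.07 to 1.78), FOXH1 (-0.11 to 0.24) and EOMES (-4.52 to 0.13), and in shMAFK TDGF1 (-0.01 to 0.26). The low values of MIXL1, EOMES, CER1 and the LEFTY genes and the unknown depth limit what could be detected.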
